A study of Homo sapiens with 6 samples.

Results

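The genes described here are 58 interferon-stimulated genes outside the OAS family, chosen by symbol with earlier results of these data known. All 58 had a row among the 22354 loci of the deposited count table, and 57 of them were among the 14860 loci with enough counts to be tested, IFITM2 being the exception. The table holds 6 libraries of total RNA from HTori-3.1, an established line of immortalised human thyroid follicular cells, and the question put to them is how cells carrying a CRISPR-Cas9 edit of BMAL1, a core transcription factor of the circadian clock, differ from controls. The cells of all 6 libraries had received etoposide at 2 μM, a topoisomerase poison used here to bring on senescence. The sample field gives 12 hours of exposure and the treatment protocol 24 hours. The groups are 3 wild type control libraries and 3 libraries labelled BMAL1 knockout, and no untreated library was analysed here. The knockout cells were picked as single clones after puromycin, so an effect of the edit and a property of a clone cannot be told apart, and the labels do not say whether replicates were separate cultures, so p-values measure only the spread between these libraries. Total counts were 26893063, 27029060 and 28513703 in control replicates 1, 2 and 3 and 43148059, 29860233 and 43563391 in knockout-labelled replicates 1, 2 and 3.

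Interferons are secreted proteins that cells release on sensing foreign or misplaced nucleic acid. Type I and type III interferons act through JAK kinases on a complex holding STAT2 and IRF9, which binds the interferon-stimulated response element (ISRE) in the promoters of responsive genes. The products of these genes bind viral RNA, tag proteins with the ubiquitin-like modifier ISG15, block viral entry or replication, and include sensors and factors of the pathway itself; many are also transcribed at a low level without added interferon.

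The targeted gene was examined first. BMAL1 (chr11:13276652-13387266, hg38) stood at 11.3, 12.2 and 14.6 CPM (counts scaled to library size with edgeR's TMM factors) in the control libraries and at 17.9, 19.8 and 19.4 CPM in the libraries labelled BMAL1 knockout. Its transcript was therefore higher in every knockout-labelled library than in any control library, against the direction a loss of the transcript would give, and protein was not analysed here. The log2 fold change was 0.58 ± 0.11 (SE, n = 3 and 3, edgeR adjusted p = 0.0204), and the call was lost without control replicate 1 (edgeR adjusted p = 0.0896), control replicate 2 (0.113), knockout replicate 2 (0.0749) or knockout replicate 3 (0.0598). The groups are called by their labels throughout, and every direction below is that of the knockout-labelled libraries against the controls.

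Of the 57 tested members, 8 fell and 0 rose at an adjusted p under 0.05 in edgeR's quasi-likelihood test, adjusted over all 14860 loci. Over all tested loci, 212 (1.43%) were lower and 161 (1.08%) higher by the same rule, and 14% of the members passed on the lower side. Because the members were chosen with earlier results of these data known, shares of members beside all tested loci are descriptions. They do not test the list. At an unadjusted p under 0.05 in edgeR, 15 members were lower and 0 higher, beside 1156 loci (7.78%) lower and 1350 (9.08%) higher over the whole table, and DESeq2 also called 0 members higher. The 8 genes were IFIT3, IFI44, IFIT1, IFIT2, DDX60, HERC5, HERC6 and MX2. The libraries of the groups did not overlap for 22 members, all lower in the knockout-labelled libraries (38.6% of those tested), against 11.5% of all tested loci lower and 11.8% higher; for such a gene the exact two-sided permutation test of 3 against 3 gives p = 0.1, the smallest it can give. Of the 57 members, 46 (80.7%) had a log2 fold change below 0, as had 47.8% of all tested loci, and the median was -0.11 over the members and 0.01 over all tested loci. No member passed a fold change over 2 with an unadjusted p under 0.01.

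How many members passed depended on which libraries were kept. IFIT3 alone of the members passed in each of the 6 fits that left 1 library out. Without control replicate 1 the members called lower were IFIT3 and IFI44 (2 in all), without control replicate 2 only IFIT3 (1), and without control replicate 3 IFIT3 and ISG20 (2). Without knockout replicate 1 there were 9, namely IFIT3, IFI44, IFIT1, IFIT2, DDX60, HERC5, HERC6, SAMD9 and LAP3, while without knockout replicate 2 there were 3 (IFIT3, IFI44 and MX2) and without knockout replicate 3 there were 2 (IFIT3 and IFI44). All loci called lower moved too, to between 67 and 340, the 340 being without knockout replicate 1. The variance between libraries, relative to counting noise, was 33.7 and 48.8 for knockout replicate 1 against knockout replicates 2 and 3. It was 7.9 between the latter and from 5.69 to 15.6 between control libraries. DESeq2 called 10 members lower, the 8 with ISG20 and ZC3HAV1, beside 379 of all loci, and limma-voom 7 beside 194. With library totals in place of TMM factors 5 members were called lower, and the split of all loci became 155 lower and 185 higher, in place of 212 and 161.

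**Figure D1:**
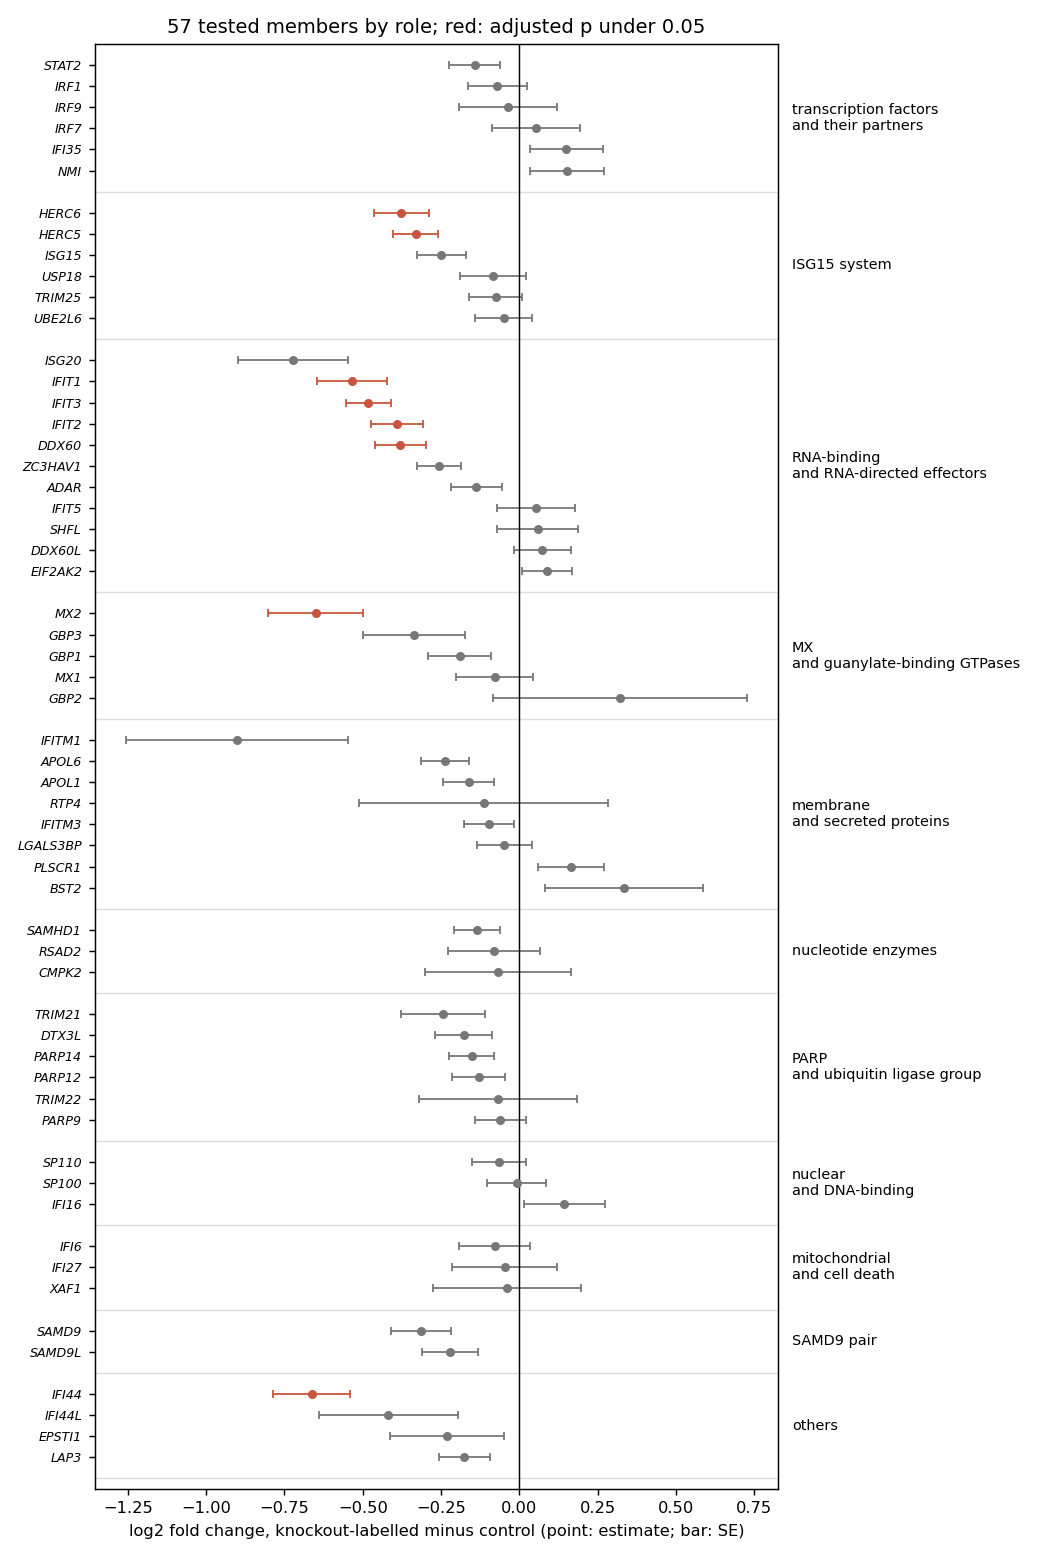
Log2 fold change of the 57 tested members (horizontal axis, knockout-labelled minus control), grouped by role; points are edgeR estimates, bars their SE, and red marks an adjusted p under 0.05. The 8 red points all lie below 0, and 46 of the 57 estimates do.

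The levels of the libraries are given for the members as a whole before the single genes. The CPM of all 58 members summed to 3655, 3626 and 3607 in control replicates 1, 2 and 3 and to 3209, 3271 and 3201 in the knockout-labelled replicates. The groups did not overlap, with means of 3629 ± 24.5 and 3227 ± 38.3 CPM (SD, n = 3 each). Over the 57 tested members, the median log2 ratio to the control mean was 0.006, 0.003 and -0.059 in the control libraries and -0.155, -0.088 and -0.175 in the knockout-labelled ones. Control replicate 3 and knockout-labelled replicate 2 came nearest to each other. Over the members that were not called, this median was 0.025, 0.009 and -0.075 in the control libraries. In the knockout-labelled ones it was -0.137, -0.060 and -0.130, so the groups overlapped there.

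Libraries also differed in base composition, within the groups as well as between them. In the 3395 tested loci with the lowest GC content, at most 41.9% over the canonical transcript, the median log2 deviation from the mean of the 6 libraries was -0.08, -0.06 and 0.07 in control replicates 1, 2 and 3 and 0.15, -0.03 and -0.04 in knockout-labelled replicates 1, 2 and 3. The 8 called members had a median GC content of 43.0%, the other 49 tested members 46.0% and all tested loci with a value 48.5%. With each library's GC trend removed, an alternative chosen after seeing the data, 14 members were called lower and 0 higher, beside 942 loci (6.34%) lower over the whole table. All 8 genes named above were among the 14, with ISG20, ZC3HAV1, SAMD9, SAMD9L, ISG15 and APOL6.

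Promoters are shown for the members with the smallest p-values among those whose window holds an ISRE core, because the ISRE is the element that the complex holding STAT2 and IRF9 binds. The windows are 300 bases long and span a RefSeq start (GRCh38.p14), and 49 of the 58 members matched a window by symbol. The core was searched as GAAA, any 2 bases and GAAA again on either strand, which reads TTTC, any 2 bases and TTTC where it lies on the opposite strand. Capitals mark each match, and matches may overlap. It was found for 33 of the 49 members (67.3%), counting a gene with several starts once, against 4.38% of 27305 genes and 3.57% of all 35116 windows. Of the called members 6 had a window and 5 of these held the core, as did 28 of 43 other members, so the core was common among members that passed and members that did not. It was as common in the genes of MHC class I antigen presentation, at 11 of 16 with a window (68.8%), and was found for 1 of 2 genes of the OAS family. HERC6 is shown as the called member without a match; that says only that these letters are not in its window. The windows are at chr10:89327747-89328046 (IFIT3, plus strand), chr1:78649539-78649838 (IFI44, plus), chr10:89392373-89392672 (IFIT1, plus), chr4:168318703-168319002 (DDX60, minus), chr4:88456869-88457168 (HERC5, plus) and chr4:88378602-88378901 (HERC6, plus), each printed 5′ to 3′ on the strand of its gene.
IFIT3: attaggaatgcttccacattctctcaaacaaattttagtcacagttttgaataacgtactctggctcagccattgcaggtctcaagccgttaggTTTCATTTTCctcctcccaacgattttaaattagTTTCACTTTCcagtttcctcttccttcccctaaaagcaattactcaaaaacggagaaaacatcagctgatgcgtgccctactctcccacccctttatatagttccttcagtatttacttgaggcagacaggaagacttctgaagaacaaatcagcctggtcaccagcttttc
IFI44: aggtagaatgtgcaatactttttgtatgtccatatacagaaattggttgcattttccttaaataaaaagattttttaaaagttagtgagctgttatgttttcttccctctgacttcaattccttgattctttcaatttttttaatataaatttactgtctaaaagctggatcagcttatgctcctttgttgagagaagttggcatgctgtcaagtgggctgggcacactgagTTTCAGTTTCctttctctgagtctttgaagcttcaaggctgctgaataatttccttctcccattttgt
IFIT1: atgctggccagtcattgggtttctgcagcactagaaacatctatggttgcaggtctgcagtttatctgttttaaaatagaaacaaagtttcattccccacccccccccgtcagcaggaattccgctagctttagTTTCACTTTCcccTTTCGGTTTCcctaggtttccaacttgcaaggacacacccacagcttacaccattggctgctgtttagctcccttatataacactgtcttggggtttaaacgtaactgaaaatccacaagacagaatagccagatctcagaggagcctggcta
DDX60: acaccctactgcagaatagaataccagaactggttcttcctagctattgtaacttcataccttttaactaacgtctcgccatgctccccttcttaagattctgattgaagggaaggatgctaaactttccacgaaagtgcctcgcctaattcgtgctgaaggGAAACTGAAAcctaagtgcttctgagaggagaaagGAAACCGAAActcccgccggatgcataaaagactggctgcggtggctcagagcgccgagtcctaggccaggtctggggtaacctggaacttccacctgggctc
HERC5: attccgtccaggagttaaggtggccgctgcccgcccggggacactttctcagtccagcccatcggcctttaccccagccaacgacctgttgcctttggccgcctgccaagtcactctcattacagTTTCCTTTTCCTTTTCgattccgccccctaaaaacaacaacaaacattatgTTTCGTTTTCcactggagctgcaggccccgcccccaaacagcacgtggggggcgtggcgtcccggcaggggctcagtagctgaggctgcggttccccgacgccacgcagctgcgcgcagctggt
HERC6: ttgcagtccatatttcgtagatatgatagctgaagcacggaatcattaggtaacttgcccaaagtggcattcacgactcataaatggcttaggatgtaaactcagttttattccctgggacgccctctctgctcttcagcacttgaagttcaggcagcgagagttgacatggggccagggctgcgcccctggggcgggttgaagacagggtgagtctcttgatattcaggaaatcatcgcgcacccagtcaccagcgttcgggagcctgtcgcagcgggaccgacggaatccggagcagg
IFIT3, IFIT1 and DDX60 each held 2 matches, IFI44 held 1 and HERC5 held 3, of which a pair overlapped. A match is a description of the letters and says nothing of binding in these cells.

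Among RNA-binding and RNA-directed effectors, 4 of 11 tested members fell, and the median log2 fold change was -0.26. IFIT1, IFIT2 and IFIT3 are tetratricopeptide-repeat proteins that form complexes with one another, and IFIT1 binds RNA whose cap lacks 2′-O methylation. IFIT3 (chr10:89327307-89377473) stood at 194, 198 and 209 CPM in the control libraries and at 144, 147 and 139 CPM in the knockout-labelled ones. The 6 values formed tight groups with a wide gap between them. IFIT3 fell by 28.4%, a log2 fold change of -0.48 ± 0.07 (SE, n = 3 and 3, edgeR adjusted p = 0.00505), and with 1 library left out its log2 fold change ranged from -0.51 to -0.45 with an adjusted p of at most 0.0379.

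IFIT1 (chr10:89392546-89406487) had control values of 105, 104 and 115 CPM and knockout-labelled values of 90.0, 68.3 and 65.4 CPM. Knockout-labelled replicate 1 lay closest to the controls without reaching them. The log2 fold change was -0.53 ± 0.11 (SE, edgeR adjusted p = 0.0325), and only the fit without knockout replicate 1, at -0.70, kept the call among those leaving 1 library out. IFIT2 (chr10:89283694-89309271), whose product binds AU-rich double-stranded RNA, stood at 194, 200 and 200 CPM in controls and at 167, 149 and 138 CPM in the knockout-labelled libraries. Again every knockout-labelled library lay below every control, with replicate 1 the highest of them. IFIT2 had a log2 fold change of -0.39 ± 0.08 (SE, edgeR adjusted p = 0.0326), which ranged from -0.47 to -0.33 with 1 library left out, and here too only the fit without knockout replicate 1 kept the call (edgeR adjusted p up to 0.153 in the others). With every library kept, the IFIT2 call was lost with the replicate block.

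IFIT5, the remaining member of the same cluster and a binder of RNA with a 5′ triphosphate, stood at 36.3, 34.5 and 38.0 CPM in controls and at 46.0, 33.0 and 33.7 CPM in the knockout-labelled libraries. One knockout-labelled library was the highest of the 6 and the other two the lowest, so the groups overlapped. IFIT5 did not pass (log2 fold change 0.05 ± 0.12, edgeR adjusted p = 0.869), and the difference between it and the other IFIT genes was not tested. The 20 tested loci on either side of a gene, members left out, had a median log2 fold change of 0.14 around IFIT1, IFIT2 and IFIT3, 0.07 around IFI44 and around DDX60, 0.04 around HERC5 and HERC6, and -0.13 around MX2.

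DDX60, a DExD/H-box helicase reported to assist RIG-I-like sensing, lies on chromosome 4 (chr4:168216291-168318883). It stood at 71.2, 79.4 and 79.2 CPM in controls and at 62.5, 58.8 and 55.3 CPM in the knockout-labelled libraries. The groups did not overlap, and the log2 fold change was -0.38 ± 0.08 (SE, edgeR adjusted p = 0.0348), with the call kept only without knockout replicate 1 among the fits leaving 1 library out (edgeR adjusted p up to 0.174 in the others). With every library kept, DDX60 lost its call with the replicate block and after thinning. Its neighbour and paralogue DDX60L stood at 52.2, 55.8 and 60.1 CPM against 62.9, 53.3 and 60.6 CPM, with overlapping groups (log2 fold change 0.07 ± 0.09, edgeR adjusted p = 0.739). ISG20, an exonuclease that degrades RNA, lay just outside the threshold and passed in 6 of the 12 alternatives that keep every library and the adjusted p threshold, DESeq2 among them. It stood at 8.05, 8.19 and 5.68 CPM in controls and at 4.17, 5.18 and 3.97 CPM in the knockout-labelled libraries, with control replicate 3 close to them (log2 fold change -0.72 ± 0.18, edgeR adjusted p = 0.0536).

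ZC3HAV1, the zinc-finger antiviral protein that binds CpG-rich RNA, had means of 178 ± 3.00 CPM in controls and 149 ± 5.93 CPM in the knockout-labelled libraries (SD, n = 3 each), without overlap (log2 fold change -0.26 ± 0.07, edgeR adjusted p = 0.0839). ADAR, the adenosine deaminase that edits double-stranded RNA, was among the 5 members with the highest level per kilobase. It stood at 461, 448 and 446 CPM in controls and at 368, 424 and 441 CPM in the knockout-labelled libraries, where replicate 1 was well below the rest (log2 fold change -0.14 ± 0.08, edgeR adjusted p = 0.427). EIF2AK2, the kinase PKR that halts translation on binding double-stranded RNA, had overlapping groups with means of 174 ± 11 and 185 ± 10.4 CPM (SD, n = 3 each, edgeR adjusted p = 0.624). SHFL, which blocks viral frameshifting, also overlapped between groups (edgeR adjusted p = 0.862); 22.9% of its exon bases are shared with ANGPTL6 on the opposite strand, and whether the counting used strand is not given in the sources used here.

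**Figure D2:**
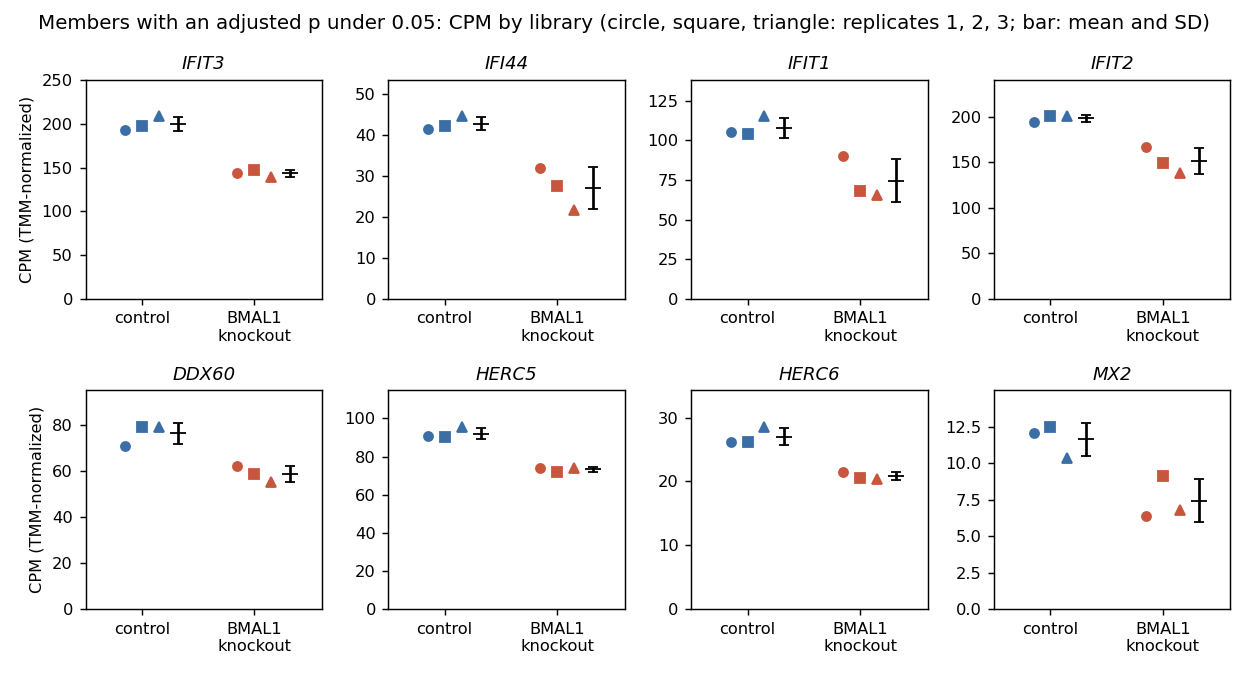
CPM (vertical axis, TMM-normalised, from 0) of the 8 members that passed, in each library; circles, squares and triangles are replicates 1, 2 and 3, and the bars give the mean and SD of 3 libraries. In every panel the 3 knockout-labelled libraries lie below the 3 controls, with IFIT3 at 139 to 147 CPM against 194 to 209 CPM.

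In the ISG15 system 2 of 6 members fell, with a median log2 fold change of -0.17. All 6 estimates were below 0, beside 80.7% of all tested members and 47.8% of all tested loci. HERC5, the principal ligase that attaches ISG15 to newly made proteins in human cells, lies beside HERC6 on chromosome 4 (chr4:88457119-88506163 and chr4:88378739-88443097). HERC5 stood at 90.6, 90.1 and 95.5 CPM in controls and at 74.1, 71.7 and 73.9 CPM in the knockout-labelled libraries. Neither group spread by more than a few CPM, and they did not overlap (log2 fold change -0.33 ± 0.07 SE, edgeR adjusted p = 0.0354). HERC6, a related HECT-domain protein, stood at 26.2, 26.2 and 28.5 CPM in controls and at 21.5, 20.5 and 20.4 CPM in the knockout-labelled libraries. This gene too separated the groups (log2 fold change -0.38 ± 0.09 SE, edgeR adjusted p = 0.0456), and of the fits leaving 1 library out only that without knockout replicate 1 kept both calls, the others giving edgeR adjusted p up to 0.166 for HERC5 and 0.18 for HERC6. With every library kept, HERC6 also lost its call with library totals, limma-voom, the replicate block, thinning and a common dispersion without robust moderation. HERC5 lost it with library totals, the replicate block and thinning.

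ISG15 itself, the modifier, stood at 89.6, 87.4 and 79.4 CPM in controls and at 72.2, 75.0 and 68.6 CPM in the knockout-labelled libraries. Its groups did not overlap, but it did not pass (log2 fold change -0.25 ± 0.08, edgeR adjusted p = 0.129). USP18, which removes ISG15 and dampens receptor signalling, had overlapping groups with means of 20.9 ± 2.40 and 19.8 ± 1.15 CPM (SD, n = 3 each, edgeR adjusted p = 0.747). UBE2L6, the conjugating enzyme, and TRIM25, a ligase that acts on RIG-I, overlapped between groups as well (edgeR adjusted p = 0.838 and 0.708). UBA7, which activates ISG15 and is not among the members, had an edgeR adjusted p of 0.915.

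Of the MX and guanylate-binding GTPases, 1 of 5 fell. MX2 (chr21:41361999-41409393), a dynamin-like protein of the nuclear envelope that restricts HIV-1, stood at 12.1, 12.5 and 10.4 CPM in controls and at 6.42, 9.14 and 6.77 CPM in the knockout-labelled libraries. Control replicate 3 and knockout-labelled replicate 2 came nearest to each other without overlap. The log2 fold change was -0.65 ± 0.15 (SE, edgeR adjusted p = 0.0456), from -0.82 to -0.56 with 1 library left out, and only the fit without knockout replicate 2 kept the call. With every library kept, the MX2 call was lost with library totals, after thinning, and without robust moderation, whether or not the dispersion was common. Its neighbour MX1, a cytoplasmic inhibitor of many RNA viruses, stood at 14.9, 13.2 and 11.6 CPM in controls and at 11.4, 13.6 and 12.6 CPM in the knockout-labelled libraries. Those groups overlapped (edgeR adjusted p = 0.8). GBP1, GBP2 and GBP3, GTPases that coat intracellular pathogens, also overlapped between groups, GBP2 at under 1 CPM in each library.

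IFI44, a protein found on microtubule-like structures whose molecular role is not settled, had the lowest adjusted p after IFIT3. IFI44 (chr1:78649796-78664078) stood at 41.5, 42.3 and 44.6 CPM in controls and at 31.8, 27.5 and 21.7 CPM in the knockout-labelled libraries. The knockout-labelled libraries were more widely spread than the controls, and all lay below them. The log2 fold change was -0.66 ± 0.12 (SE, edgeR adjusted p = 0.0163), a decrease of 36.8% in the fit, and the call was lost without control replicate 2 or control replicate 3, with adjusted p of at most 0.0979. Its paralogue and neighbour IFI44L was scarce, at 1.90, 2.02 and 2.04 CPM in controls and 1.78, 1.18 and 1.47 CPM in the knockout-labelled libraries, without overlap (edgeR adjusted p = 0.371). LAP3, a leucine aminopeptidase, had means of 98.6 ± 0.824 and 87.3 ± 7.74 CPM (SD, n = 3 each), also without overlap (edgeR adjusted p = 0.299), and EPSTI1 overlapped.

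None of the 6 transcription factors and partners passed, and their median log2 fold change was 0.01. STAT2, a subunit of the ISRE-binding complex, stood at 81.3, 78.8 and 74.7 CPM in controls and at 65.2, 72.9 and 74.7 CPM in the knockout-labelled libraries. The highest knockout-labelled value lay just under the lowest control value (log2 fold change -0.14 ± 0.08, edgeR adjusted p = 0.405). IRF9, the DNA-binding subunit of that complex, stood at 5.07, 4.79 and 4.89 CPM in controls and at 4.64, 5.67 and 4.13 CPM in the knockout-labelled libraries. These values overlapped (log2 fold change -0.04 ± 0.16, edgeR adjusted p = 0.937), and 93.1% of its exon bases are shared with a second annotated gene on the same strand, so its count is uncertain.

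IRF7, the factor that amplifies type I interferon production, stood at 9.28, 9.09 and 8.21 CPM in controls and at 7.47, 10.1 and 10.0 CPM in the knockout-labelled libraries. Knockout-labelled replicate 1 was the lowest of the 6 libraries and the other knockout-labelled libraries the highest (log2 fold change 0.05 ± 0.14, edgeR adjusted p = 0.889). IRF1, a factor induced by interferon-gamma and by nuclear factor kappa B, stood at 37.8, 36.8 and 32.9 CPM in controls and at 31.2, 36.9 and 34.4 CPM in the knockout-labelled libraries. Its groups overlapped (log2 fold change -0.07 ± 0.09, edgeR adjusted p = 0.767). NMI and IFI35, which bind each other, were also within overlap (edgeR adjusted p = 0.56 and 0.561).

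**Figure D3:**
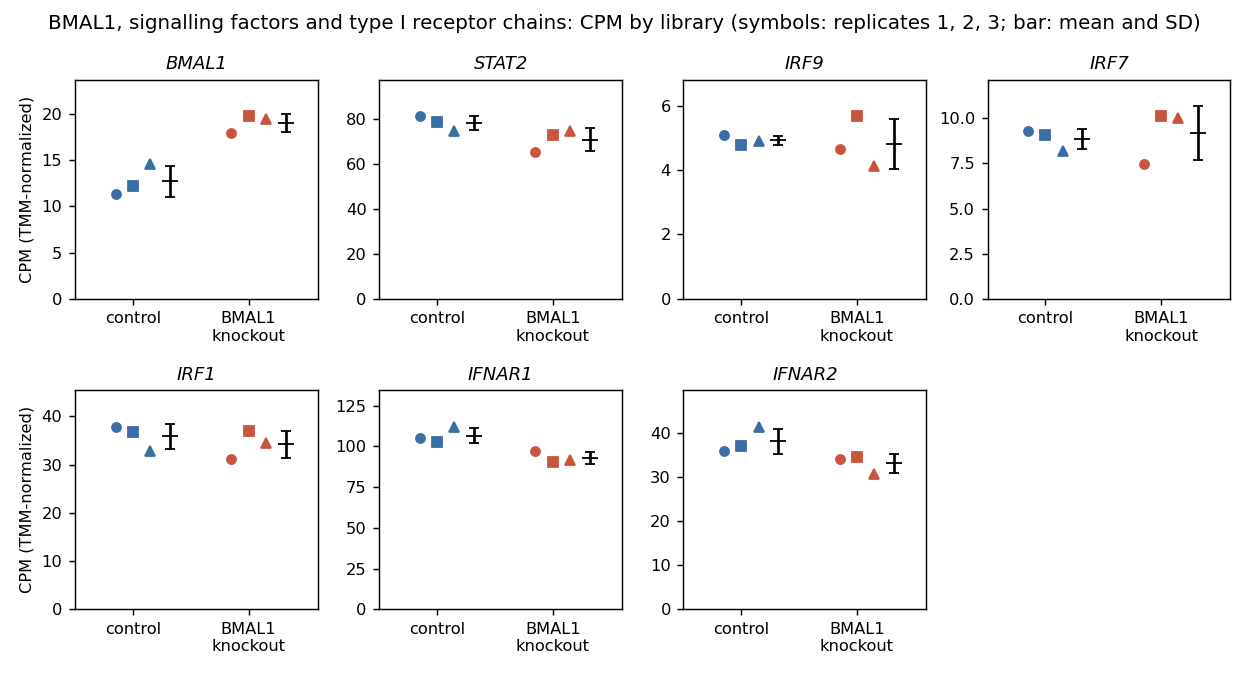
CPM (vertical axis, TMM-normalised, from 0) of BMAL1, the member factors STAT2, IRF9, IRF7 and IRF1, and both chains of the type I interferon receptor in each library; symbols are replicates 1, 2 and 3, bars the mean and SD of 3 libraries. BMAL1 is higher in the 3 knockout-labelled libraries, at 17.9 to 19.8 CPM, and of these genes only BMAL1 passed the test.

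Of the 8 tested membrane and secreted proteins 0 passed in edgeR in either direction, 2 having an unadjusted p under 0.05, and DESeq2 called 0 of them. Per kilobase of canonical transcript, the highest mean levels over the 6 libraries among all members were those of LGALS3BP, ISG15, IFITM3, IFIT3 and ADAR, at 163, 124, 111, 71.9 and 65.3 CPM per kilobase. LGALS3BP, a secreted galectin-binding glycoprotein, stood at 393, 374 and 329 CPM in controls and at 328, 358 and 374 CPM in the knockout-labelled libraries. Its groups overlapped (log2 fold change -0.05 ± 0.09, edgeR adjusted p = 0.834). IFITM3, which hinders virus entry at endosomes, stood at 71.4, 73.6 and 65.5 CPM in controls and at 66.9, 67.3 and 62.7 CPM in the knockout-labelled libraries. These overlapped too (log2 fold change -0.10 ± 0.08, edgeR adjusted p = 0.583). IFITM1, IFITM2 and IFITM3 are neighbouring genes of 1 family, and whether reads were split between them was not tested.

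IFITM1 was scarce, at 1.38, 0.897 and 0.821 CPM in controls and 0.726, 0.328 and 0.564 CPM in the knockout-labelled libraries, without overlap (log2 fold change -0.90 ± 0.36, edgeR adjusted p = 0.22). Its exons overlap a second annotated gene on the same strand over 52.5% of their bases. IFITM2 had 2, 0 and 2 counts in the controls and 0 in each knockout-labelled library, too few for a test. APOL6, an apolipoprotein L family member, had the smallest p of this group and stood at 55.2, 55.2 and 59.2 CPM in controls and at 47.6, 49.3 and 47.0 CPM in the knockout-labelled libraries. Its groups did not overlap (log2 fold change -0.24 ± 0.08, edgeR adjusted p = 0.138). BST2, the tetherin that holds budding virus at the membrane, and PLSCR1, a scramblase family protein, had estimates above 0, at 0.34 ± 0.25 and 0.17 ± 0.11, with overlapping groups (edgeR adjusted p = 0.541 and 0.47).

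The SAMD9 pair, cytoplasmic proteins that restrict poxviruses, separated the groups without passing. SAMD9 stood at 105, 110 and 123 CPM in controls and at 102, 82.5 and 86.4 CPM in the knockout-labelled libraries, so control replicate 1 and knockout-labelled replicate 1 were close (log2 fold change -0.31 ± 0.10, edgeR adjusted p = 0.114). SAMD9L ranged from 57.4 to 62.2 CPM in controls and from 46.5 to 56.5 CPM in the knockout-labelled libraries (edgeR adjusted p = 0.232). Among nucleotide enzymes the smallest p was that of SAMHD1, which hydrolyses deoxynucleotide triphosphates. It stood at 131, 132 and 142 CPM in controls and at 117, 123 and 129 CPM in the knockout-labelled libraries, without overlap (log2 fold change -0.14 ± 0.07, edgeR adjusted p = 0.387). RSAD2, the viperin that makes a chain-terminating nucleotide, lay between 4.33 and 5.27 CPM and overlapped between groups (edgeR adjusted p = 0.837), as did its neighbour CMPK2.

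All 6 members of the PARP and ubiquitin ligase group had estimates below 0, beside 80.7% of all tested members and 47.8% of all tested loci. Their median log2 fold change was -0.14, against -0.11 over all tested members. Of these 6, 0 passed in edgeR, 0 having an unadjusted p under 0.05, and 0 in DESeq2. PARP14, a mono-ADP-ribosyltransferase, stood at 157, 148 and 143 CPM in controls and at 132, 139 and 132 CPM in the knockout-labelled libraries. The groups came close but did not overlap (log2 fold change -0.15 ± 0.07, edgeR adjusted p = 0.309). Of the nuclear members IFI16, a DNA sensor, stood at 24.4, 26.6 and 23.1 CPM in controls and at 33.4, 25.3 and 23.2 CPM in the knockout-labelled libraries. Only knockout-labelled replicate 1 stood above the rest (log2 fold change 0.14 ± 0.13, edgeR adjusted p = 0.625). IFI6, a small protein of the mitochondrion and endoplasmic reticulum, stood at 24.2, 24.1 and 18.9 CPM in controls and at 21.1, 22.9 and 19.7 CPM in the knockout-labelled libraries. It overlapped (log2 fold change -0.08 ± 0.11, edgeR adjusted p = 0.783), as did IFI27 and XAF1, the latter sharing 74.2% of its exon bases with a gene on the opposite strand. IFI6 shares 26.6% of its exon bases with LINC02574 on the same strand.

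**Figure D4:**
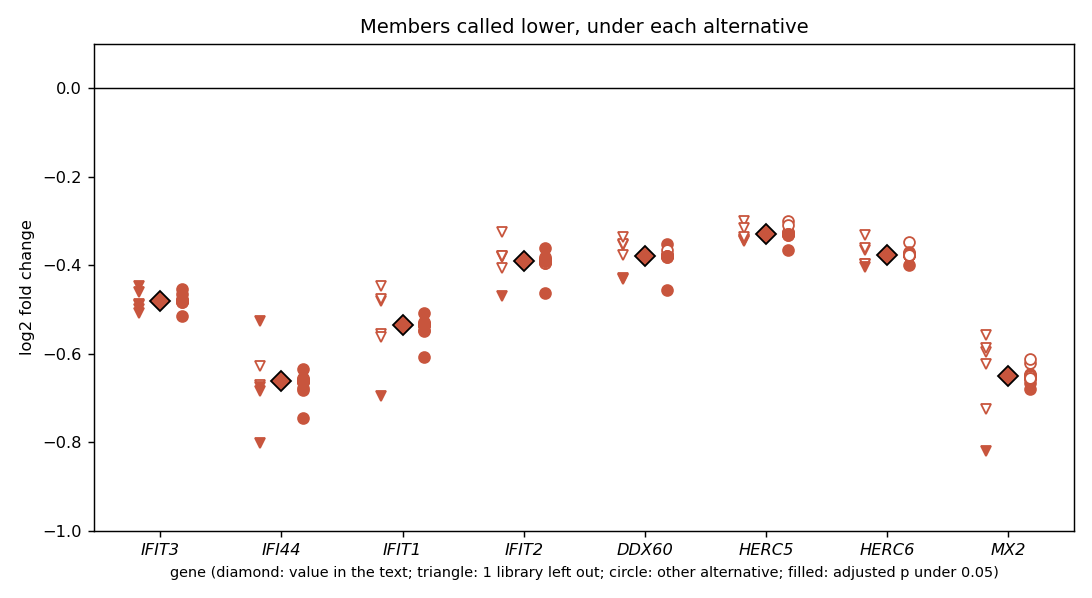
Log2 fold change (vertical axis) of the 8 members that passed, under each alternative; diamonds are the values given in the text, triangles fits without 1 library, circles the other alternatives, and filled symbols an adjusted p under 0.05. Every estimate lies below 0, while filled triangles for all 6 fits appear only for IFIT3.

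The pathway genes outside the members were taken from lists of ligands, receptors, signalling kinases and factors, negative regulators, the ISG15-activating enzyme, and sensors and adaptors. Of 12 tested sensors and adaptors 2 fell, RIGI and IFIH1. RIGI stood at 78.2, 77.3 and 88.2 CPM in controls and at 62.5, 54.1 and 50.3 CPM in the knockout-labelled libraries (log2 fold change -0.55 ± 0.10 SE, edgeR adjusted p = 0.0128, but 0.052 without control replicate 2 and 0.0796 without control replicate 3). IFIH1, which encodes MDA5, stood at 59.6, 66.0 and 67.2 CPM in controls and at 44.2, 51.7 and 48.2 CPM in the knockout-labelled libraries (log2 fold change -0.42 ± 0.09 SE, edgeR adjusted p = 0.0292, but 0.145 without control replicate 2, 0.0985 without control replicate 3 and 0.0692 without knockout replicate 3). Neither gene overlapped between groups. DHX58, the remaining RIG-I-like receptor, had overlapping groups and did not pass (log2 fold change -0.24 ± 0.19, edgeR adjusted p = 0.548). IRF5 was higher without overlap, at 15.7, 13.2 and 12.5 CPM in controls and 16.1, 17.6 and 16.2 CPM in the knockout-labelled libraries, and did not pass (log2 fold change 0.27 ± 0.11, edgeR adjusted p = 0.242). Without control replicate 2 or control replicate 3 the count of these pathway genes called lower was 0, and without knockout replicate 3 it was 1.

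None of the 6 receptor chains passed with the settings used throughout. IFNAR1 stood at 105, 103 and 112 CPM in controls and at 97.1, 90.5 and 91.6 CPM in the knockout-labelled libraries, without overlap (log2 fold change -0.20 ± 0.07, edgeR adjusted p = 0.201, but 0.0085 at a log2 fold change of -0.26 with the GC trend removed). IFNAR2 ranged from 36.0 to 41.4 CPM and from 30.6 to 34.6 CPM (log2 fold change -0.20 ± 0.09, edgeR adjusted p = 0.289). The 20 tested loci on either side had a median log2 fold change of -0.17 around each of IFNAR1, IFNAR2, IL10RB and IFNGR2, all on chromosome 21. The estimates of IFNAR1 and IFNAR2 were near it, as was that of IFNGR2 (-0.17 ± 0.09, edgeR adjusted p = 0.333). IL10RB, which lies between IFNAR2 and IFNAR1, was at 0.07 ± 0.09 (edgeR adjusted p = 0.781). The part of the region in these estimates was not tested. IFNGR1, IFNGR2, IFNLR1 and IL10RB had overlapping groups. Among 21 interferon genes only IFNB1, IFNE, IFNL1, IFNL2 and IFNL3 had enough counts to be tested, none passing. Of these 5, 4 had estimates below 0, beside 47.8% of all tested loci. IFNB1 stood at 2.53, 1.57 and 1.82 CPM in controls and at 2.16, 1.11 and 2.30 CPM in the knockout-labelled libraries, with overlapping groups (log2 fold change -0.07 ± 0.29, edgeR adjusted p = 0.93). IFNL1 was lower without overlap (log2 fold change -0.28 ± 0.18, edgeR adjusted p = 0.473), and IFNL3 had overlapping groups (log2 fold change -0.87 ± 0.37, unadjusted p = 0.0373, edgeR adjusted p = 0.259).

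For comparison, 2 of the 4 genes of the OAS family fell, and 0 of 18 tested genes of MHC class I antigen presentation passed in either direction (1 with an unadjusted edgeR p under 0.05, and DESeq2 called 0). That gene was PSMB9, which was higher, with overlapping groups (log2 fold change 0.30 ± 0.13, edgeR adjusted p = 0.272). OASL had the larger decrease, from 81.9, 86.5 and 75.8 CPM to 37.0, 37.1 and 36.1 CPM (log2 fold change -1.15 ± 0.08 SE, edgeR adjusted p = 3.69e-05), and the 20 tested loci on either side of it had a median of -0.24. OAS2 went from 5.74, 5.76 and 5.61 CPM to 3.87, 3.67 and 2.87 CPM (log2 fold change -0.72 ± 0.16 SE, edgeR adjusted p = 0.0371), and of the fits leaving 1 library out only that without knockout replicate 1 kept its call (edgeR adjusted p up to 0.138 in the others). OAS1 and OAS3 had edgeR adjusted p of 0.576 and 0.563. The median log2 fold change was -0.45 for the OAS list, 0.00 for the MHC class I list and -0.11 for the members, and differences between these lists were not tested.

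Markers of cell types were read beside these values. Of 9 thyroid follicular markers only PAX8 and FOXE1 had enough counts to be tested, NKX2-1 and IYD were at 0 in every library, and TG, TSHR and SLC5A5 were under 0.5 CPM in each. FOXE1 was at 47.5, 47.7 and 48.8 CPM in controls and at 36.2, 42.1 and 41.6 CPM in the knockout-labelled libraries (log2 fold change -0.26, edgeR adjusted p = 0.139, but 0.0289 with the GC trend removed), and PAX8 overlapped between groups (log2 fold change -0.28, edgeR adjusted p = 0.259). In the leukocyte list PTPRC fell (log2 fold change -1.43, edgeR adjusted p = 0.00127), and the summed level of its 6 markers, PTPRC being the most abundant, was 6.75, 6.84 and 7.32 CPM in controls and 3.00, 3.18 and 3.97 CPM in the knockout-labelled libraries. The other tested leukocyte marker, CD14, was at 0.261, 0.337 and 0.643 CPM in controls and at 0.375, 1.05 and 1.08 CPM in the knockout-labelled libraries (log2 fold change 0.99, edgeR adjusted p = 0.318), and LST1 was under 0.25 CPM in each. CD3E and TYROBP were at 0 in all libraries, as were the plasmacytoid dendritic markers LILRA4, CLEC4C and GZMB, while IL3RA of the same list had at most 0.197 CPM, with 0, 0 and 2 counts in controls and 5, 6 and 4 in the knockout-labelled libraries. Of 5 tested epithelial markers KRT18 fell (log2 fold change -0.50, edgeR adjusted p = 0.00583, but 0.0524 without control replicate 2). KRT8, the most abundant, had a log2 fold change of -0.28 (edgeR adjusted p = 0.0507, but 0.00662 without knockout replicate 1, and DESeq2 adjusted p = 0.000498) and passed also with limma-voom, with the GC trend removed, without robust moderation and with a common dispersion, while KRT7 and KRT19 had estimates above 0, at 0.10 and 0.23 (edgeR adjusted p = 0.54 and 0.426). EPCAM had 0, 10 and 0 counts in controls and 10, 16 and 17 in the knockout-labelled libraries, and its estimate, above 0 (edgeR adjusted p = 0.394), ranged from 0.99 to 6.70 with 1 library left out. The 6 epithelial markers summed to 2990, 3044 and 2897 CPM in controls and to 2540, 2482 and 2563 CPM in the knockout-labelled libraries. The 6 fibroblast and mesenchymal markers, VIM being the most abundant and COL1A2 and DCN at or near 0, summed to 2918, 2953 and 2750 CPM in controls and to 2405, 2599 and 2719 CPM in the knockout-labelled libraries. Of 4 tested none passed in edgeR with the settings used throughout. VIM had a log2 fold change of -0.24 (edgeR adjusted p = 0.0846, but 0.0127 without knockout replicate 1 and 0.0205 with the GC trend removed, and DESeq2 adjusted p = 0.00437). The 3 endothelial markers summed to at most 2.071 CPM in each library. The part of these marker genes in the members' values was not tested. In such bulk libraries fewer cells of a kind and less RNA per cell cannot be told apart.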

How the data were processed

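Total RNA of 6 HTori-3.1 libraries was sequenced by the authors as paired-end reads; the submitters' processing notes name fastp 0.20.1, HISAT2 2.0.4 and hg38. The deposited values are raw counts per gene symbol made by the authors; the counting tool's strand setting is not given in the sources used here. From them, edgeR 4.0.16 (R 4.3.3) with TMM factors, filterByExpr and a robust quasi-likelihood fit compared 3 control with 3 knockout-labelled libraries, with Benjamini-Hochberg adjustment over 14860 loci and a threshold of 0.05; the code was tested on simulated data. CPM were TMM-normalised, and levels per kilobase used GENCODE canonical transcripts (hg38). The members and lists were chosen with earlier results of these data known. Named were every member that passed, the 5 with the highest level per kilobase, STAT2, IRF9, IRF7 and IRF1, the smallest p in each role group without a call, pathway genes that passed, receptors, the OAS family and BMAL1; others were named after their values were seen. Some genes of the lists are not reported here. Alternatives were other normalisations, filters, tests (DESeq2 1.42.0, limma-voom 3.58.1), thinning to the smallest total, a replicate block and leaving out each library; removal of GC trends and other edgeR moderation and dispersion settings were added after seeing the data.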

Additional observations from a re-analysis of the deposited data

How the results depend on the processing

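Of members, 8 were called lower with all libraries. The count was 10 with DESeq2, 7 with limma-voom, 8 with median-of-ratios size factors, 9 with no low-count filter, 9 with at least 10 counts in every library, 5 with library totals only, 5 with the replicate block, 4 after thinning to the smallest total, 0 at a fold change over 2 with an unadjusted p under 0.01, and 14 with the GC trend removed, which was chosen after seeing the data; leaving out 1 library gave 1 to 9. The other edgeR settings, also chosen after seeing the data, gave 7 without robust moderation, 9 with a common dispersion and 6 with both changes. No alternative called a member higher. IFIT3, IFI44 and IFIT1 passed in all 12 alternatives that keep every library and the adjusted p threshold, and only IFIT3 also in all 6 that leave 1 out.

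Over all loci, 212 were lower and 161 higher. DESeq2 gave 379 and 256, limma-voom 194 and 118, thinning 176 and 155, removal of the GC trend 942 and 433, and the fold and unadjusted p thresholds 48 and 94; no robust moderation gave 172 and 123, a common dispersion 216 and 174, and both changes 184 and 136. Leaving out 1 library gave 67 to 340 lower and 46 to 293 higher. The median log2 fold change of the members ranged from -0.16 to -0.11 without 1 library, and members below 0 from 41 to 47. Pathway genes called lower ranged from 0 to 2 and were 3 with the GC trend removed, IFNAR1 being added; the OAS family count ranged from 1 to 2 and was 1 without robust moderation. BMAL1 ranged from 0.50 to 0.70.

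The labels do not say whether same-numbered libraries were prepared together. Deviations from the group means correlated at -0.09, -0.05 and -0.00 between same-numbered libraries and at -0.05 to 0.10 between differently numbered ones. No sign of pairing was seen, but so few libraries cannot show how they were prepared. With the replicate block 145 loci were lower and 132 higher, and 5 members passed, of which 4 were among the 8 and the other was ISG20.

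Estimates of genes that did not pass turned sign in some fits. Among them were LGALS3BP (-0.115 to 0.008 leaving out 1 library), IRF9 (0.038 after thinning, -0.165 to 0.064 leaving out 1 library), IRF7 (-0.004 with the GC trend removed, -0.018 to 0.183 leaving out 1 library), IFI16 (-0.031 to 0.250 leaving out 1 library), IFNB1 (-0.253 to 0.174 leaving out 1 library) and IFIT5 (-0.030 with the GC trend removed, -0.122 to 0.137 leaving out 1 library). The cause of these changes was not tested.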
